A study of Homo sapiens
Mus musculus with 2 samples.

Results

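Barcodes rich in mitochondrial transcripts were those in which the genes whose symbol starts with mt- held more than 20% of all unique molecular identifiers (UMIs, tags that let copies of a captured molecule be counted once). They numbered 217 of the 2402 barcodes of 2 single-cell libraries of mouse colonic epithelium. Library 1 held 123 of 1738 barcodes, 7.08% (95% exact binomial interval 5.92 to 8.39%). Library 2 held 94 of 664, 14.2% (interval 11.6 to 17%). These intervals, here and below, treat barcodes as the units and cover counting error only, not the spread between libraries. The barcodes are called mitochondria-rich barcodes here. They were set against low-mitochondrial barcodes, those with at most 20% mitochondrial UMIs and a total within the range of the mitochondria-rich barcodes of the same library, which numbered 1106 in library 1 and 528 in library 2. Mitochondrial UMIs chose the barcodes, so every mitochondrial value is a description without a test.

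Both libraries came from the colonic epithelium of 1 untreated WT mouse of the C57Bl6 strain, as different cells of that animal sequenced in 1 run, per the series' design text. The age and sex of the mouse are not stated in the labels. Per the labels' protocols, EDTA and collagenase with DNase released the epithelium, MACS, a magnetic sort, raised the share of live cells, and human K562 leukaemia cells were spiked in. Cells were captured by inDrop, which labels the RNA of each droplet with a barcode, and RNA was amplified by CEL-Seq, which counts transcript ends. There is no second condition and no second animal. All p-values therefore rest on a spread between 2 libraries of 1 mouse, which is pooled over genes and may be technical.

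Mitochondria keep a small genome of their own, which encodes 13 proteins of the respiratory chain and the ATP synthase. All other mitochondrial proteins are encoded in the nucleus, translated in the cytosol and imported. In single-cell work a high mitochondrial share is widely read as a sign of a damaged cell that has lost cytosolic RNA, although tissues with many mitochondria also show high shares. In the colon, absorptive colonocytes at the surface depend on mitochondrial oxidation of short-chain fatty acids, while goblet and deep crypt secretory cells fill their cytoplasm with endoplasmic reticulum and secretory granules.

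Mitochondria-rich barcodes had both fewer nuclear UMIs and more mitochondrial UMIs than low-mitochondrial barcodes. The median number of nuclear UMIs was 1062 and 2096 in mitochondria-rich barcodes of libraries 1 and 2, against 3125 and 4625 in low-mitochondrial barcodes. The median number of mitochondrial UMIs was 536 and 1130 against 152 and 466. Both quantities follow in part from the 20% rule. The median mitochondrial share was 30.4% and 32.6% in mitochondria-rich barcodes, against 4.35% and 8.06% in low-mitochondrial barcodes, and the highest reached 73.7% and 78.4%. No gap marked the threshold. The lowest shares inside it were 20.048% in library 1 and 20.101% in library 2, and the highest outside it were 19.963% and 20%. Across all barcodes of a library the share and the total UMIs had a Spearman rho of -0.23 (n = 1738) and -0.21 (n = 664), measures that share the total. Between 19 and 20% lay 10 and 4 barcodes and between 20 and 21% lay 8 and 5.

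**Figure D1:**
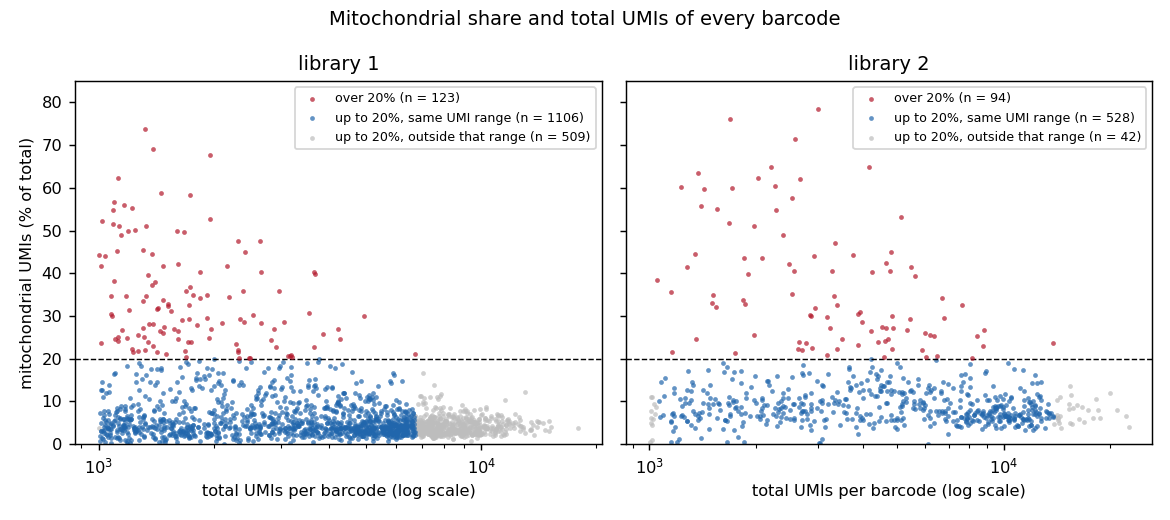
Mitochondrial UMIs as a percentage of all UMIs (vertical axis) against total UMIs on a log scale (horizontal axis), 1 point per barcode, for library 1 (left) and library 2 (right). Mitochondria-rich barcodes (red) lie above the dashed line at 20%, low-mitochondrial barcodes of the same UMI range are blue, and barcodes outside that range are grey.

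The summed nuclear UMIs were 155961 and 229615 in mitochondria-rich barcodes, against 3654593 and 2837741 in low-mitochondrial barcodes. Gene levels are given as CPM, UMIs per 1000000 nuclear UMIs with the mt- genes left out. The total UMIs of mitochondria-rich barcodes ran from 1002 to 6705 in library 1 and from 1049 to 13811 in library 2. The median total stayed lower in mitochondria-rich barcodes within this shared range, 1576 and 3173 against 3327 and 5102. Epithelial markers were at like levels. The sum of 7 pan-epithelial genes, among them keratins and the cadherin Cdh1, was 10253 and 10666 CPM in mitochondria-rich barcodes, against 8334 and 9138 CPM in low-mitochondrial barcodes, and 0 of 7 passed edgeR's test between the classes, with 1 at an unadjusted p under 0.05, Krt19, at a log2 fold change of 0.39 ± 0.16. The columns of the tables carry running numbers and no barcode sequences, so barcodes shared between libraries could not be counted, and 0 pairs of barcodes had identical counts over all genes.

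The mitochondrial transcripts themselves had nearly the same make-up in both classes. The tables list 13 mt- genes, all protein-coding. The cytochrome c oxidase subunit mt-Co2 led with 19.4% and 20.2% of mitochondrial UMIs in mitochondria-rich barcodes, against 19.7% and 19.9% in low-mitochondrial barcodes. Another subunit of that complex, mt-Co1, held 15.1% and 15.8% against 14.9% and 16.9%. Among the 9 genes with over 2% of mitochondrial UMIs in each class and library, the share in mitochondria-rich barcodes was between 0.886 and 1.18 times that in low-mitochondrial barcodes. The upper end was mt-Co3, at 8.67% and 10.7% against 7.33% and 9.31%. Lower shares in both libraries were seen for the complex I subunits mt-Nd5, 2.02% and 1.31% against 2.46% and 1.75%, and mt-Nd4l, 0.261% and 0.185% against 0.412% and 0.244%. The same held for the ATP synthase gene mt-Atp8, 0.245% and 0.18% against 0.273% and 0.245%. It also held for mt-Nd1, mt-Nd2 and mt-Nd6, the last on 4 and 10 UMIs in mitochondria-rich barcodes.

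A set of rows with nuclear gene symbols moved with the mitochondrial UMIs. Over 5 classes of mitochondrial share (0 to 5, 5 to 10, 10 to 20, 20 to 40 and over 40%), 78 of 10303 genes with at least 100 UMIs had a level that climbed with mitochondrial UMIs in both libraries, with a slope of log2(CPM + 5) on the log2 ratio of mitochondrial to nuclear UMIs of at least 0.6, where 1 is exact proportion. The median over all 10303 genes of the lower of the 2 library slopes was -0.28. This set, called proportional genes here, was found in these data and is a description. Its members differed in how close they came to exact proportion. The lower of the 2 library slopes had a median of 0.80 and was over 0.9 in 15 of the 78 and under 0.8 in 38. UMIs of the whole set per 1000 mitochondrial UMIs were 73.8, 62.6, 57.5, 55.4 and 56.1 over the 5 classes in library 1 and 108, 101, 93.5, 91.4 and 91.7 in library 2. The ratio of the highest to the lowest class stayed under 1.5 in both libraries for 11 genes and was over 2 in at least 1 library for 47. The following 3 are among the closest to exact proportion. Chek1, the gene of a DNA damage checkpoint kinase, had 6.32, 6.32, 7.22, 5.69 and 6.61 UMIs per 1000 mitochondrial UMIs over the 5 classes in library 1. In library 2 it had 13.7, 13, 12.6, 13.4 and 14.5. The ratio was thus level from the lowest to the highest mitochondrial share within a library and higher in every class in library 2. Flcn, the gene of the tumour suppressor folliculin, had 2.46, 2.13, 2.01, 2.44 and 2.11 in library 1 and 3.75, 4.62, 4.65, 5.0 and 4.57 in library 2. Piezo2, the gene of a touch-sensing ion channel, had 1.55, 1.49, 1.48, 1.59 and 1.48 and 3.37, 3.23, 3.61, 3.46 and 3.58. At the other end L3mbtl2, the gene of a chromatin protein, just inside the slope threshold, had 0.483, 0.376, 0.206, 0.145 and 0.222 in library 1 and 0.87, 0.645, 0.413, 0.403 and 0.248 in library 2, so its UMIs rose less than the mitochondrial UMIs.

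**Figure D2:**
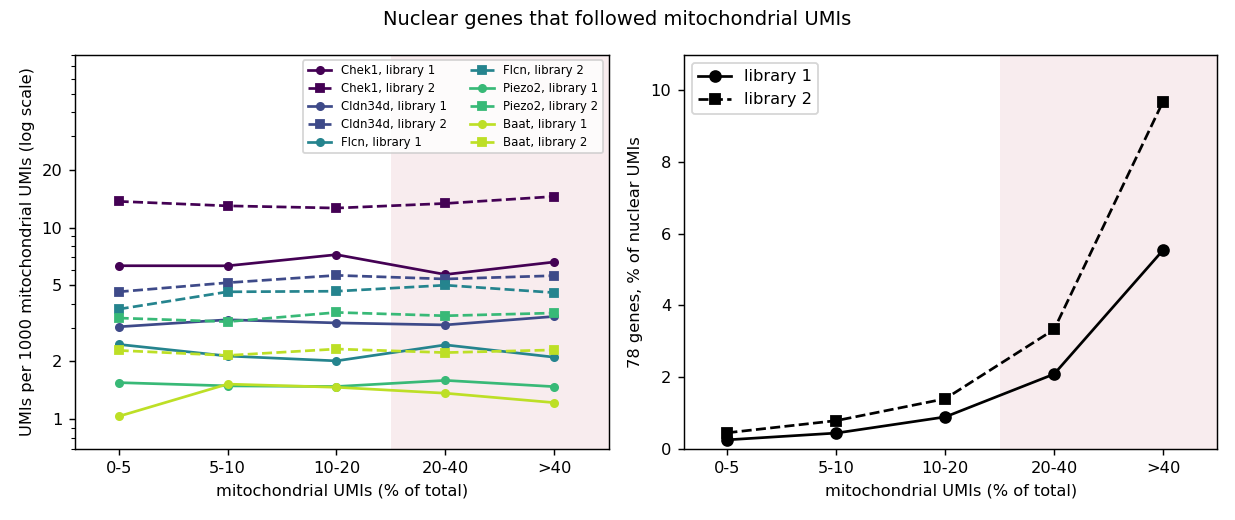
Left, UMIs per 1000 mitochondrial UMIs on a log scale for 5 proportional genes over 5 classes of mitochondrial share, in library 1 (solid lines) and library 2 (dashed lines). Right, the summed share of the 78 proportional genes among nuclear UMIs over the same classes. The shaded classes are mitochondria-rich barcodes, where the ratios of these 5 genes stay near their levels at lower shares while the share climbs to 5.54% and 9.69%.

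The ratio was also compared across cell types. Among clusters with at least 20 barcodes, Chek1 lay between 5.85 and 7.29 UMIs per 1000 mitochondrial UMIs over 10 clusters in library 1 and between 11.1 and 15.3 over 8 clusters in library 2. T cell-like barcodes, named from immune and not epithelial markers, held 6.19 in library 1 (n = 57) and 9.49 in library 2 (n = 10). Other members of the set varied more. Over the same clusters Baat lay between 0.876 and 1.81 in library 1 and between 2.02 and 2.7 in library 2, and the predicted gene Gm20125 between 0.946 and 2.41 and between 1.83 and 3.35. The 78 genes together lay between 55.3 and 96.9 and between 87.9 and 103. The goblet cell lectin gene Zg16 spanned 12.5 to 2983 and 8.07 to 1226 over the same clusters. As a share of nuclear UMIs the 78 genes stood far apart between classes, at 2.69% and 4.6% in mitochondria-rich barcodes, against 0.365% and 0.904% in low-mitochondrial barcodes. Chek1 alone had 2911 and 6955 CPM against 368 and 1198 CPM. It had at least 1 UMI in 87% and 100% of mitochondria-rich barcodes, against 55.2% and 87.3% of low-mitochondrial barcodes, T cell-like ones included. Genes known from other tissues were among the 78, such as Matn3 and Epyc of the cartilage matrix, the liver gene Baat of bile acid conjugation and the thyroid gene Iyd of iodine recycling. The set also held Ndufv1, a nuclear-encoded subunit of complex I, and 13 symbols of predicted genes. Their choice rests on their relation to the mitochondrial UMIs that chose the barcodes, so their differences between classes are no independent result.

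Cell types were unequally represented. Barcodes were clustered on 12483 nuclear genes and named from marker genes, while the other 13008 were kept as readout genes. Goblet-like clusters, led by Clca1, Fcgbp and Zg16 of the mucus layer, held 0 of 123 and 0 of 94 mitochondria-rich barcodes, which allows shares of up to 2.44% and 3.19% at a floor of 3 counts, and the exact intervals end at 2.95% and 3.85%. They held 14% (12 to 16.2%) and 11.2% (8.62 to 14.2%) of low-mitochondrial barcodes (95% exact binomial intervals). The deep crypt secretory-like cluster, led by Reg4, a lectin gene of the cells at the crypt base, held 0 of 123 and 1 of 94, against 17.1% (14.9 to 19.4%) and 13.8% (11 to 17.1%). Colonocyte-like clusters held 41.5% (32.7 to 50.7%) and 29.8% (20.8 to 40.1%) of mitochondria-rich barcodes, against 30.4% (27.7 to 33.2%) and 26.5% (22.8 to 30.5%) of low-mitochondrial barcodes. Those intervals overlap in both libraries. The cycling-like cluster held 5.69% (2.32 to 11.4%) and 6.38% (2.38 to 13.4%) of mitochondria-rich barcodes, against 12.3% (10.4 to 14.4%) and 12.1% (9.46 to 15.2%), again with overlapping intervals. Within the colonocyte-like class, 48 of the 254 barcodes of the cluster led by Emp1, Aqp8 and Clca4a were mitochondria-rich, against 28 of 435 in the cluster led by Fabp6 and Cldn8.

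**Figure D3:**
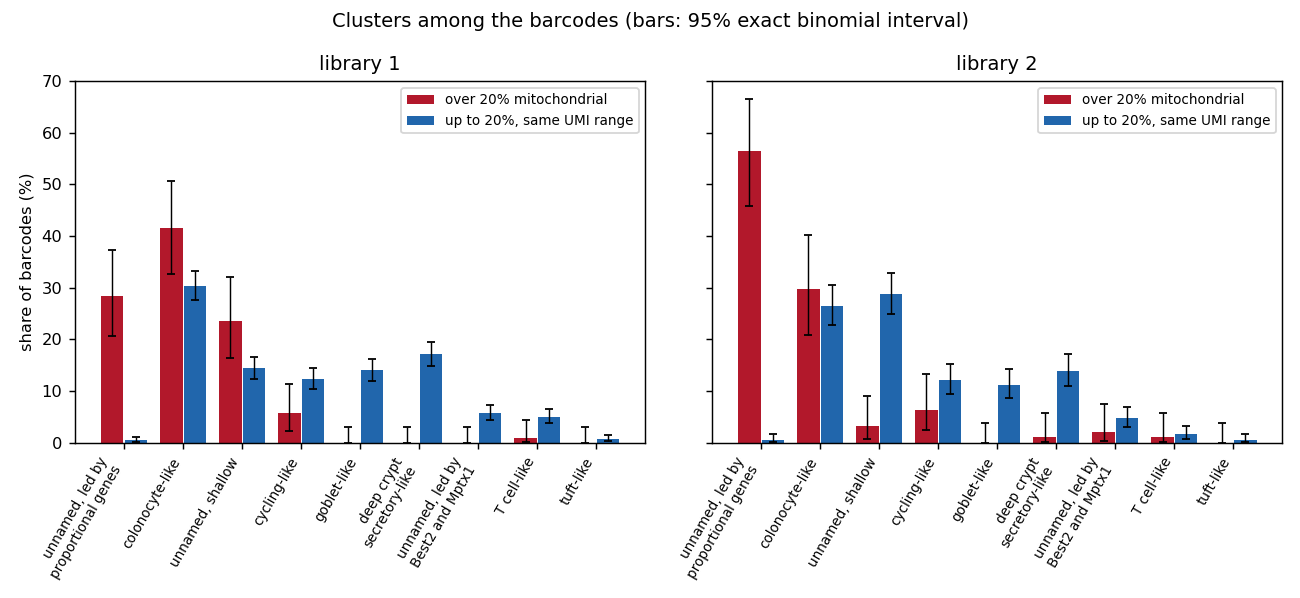
Share of barcodes (%) in each cluster or named class for mitochondria-rich (red) and low-mitochondrial barcodes (blue), in library 1 (left) and library 2 (right), with 95% exact binomial intervals. Goblet-like and deep crypt secretory-like clusters hold over 10% of low-mitochondrial and at most 1.06% of mitochondria-rich barcodes.

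A cluster led only by proportional genes, Chek1, Cldn34d and Cd40 first, held 88 mitochondria-rich barcodes among its 96, 28.5% (20.7 to 37.3%) and 56.4% (45.8 to 66.6%) of all mitochondria-rich barcodes. It stayed unnamed. When the proportional genes were left out of the clustering, an alternative chosen after seeing the data, 59 of these 88 joined the unnamed shallow cluster (median 1563 UMIs), 13 an unnamed cluster led by Reg3b, an antimicrobial lectin gene, 14 colonocyte-like clusters and 2 a goblet-like cluster. Proportional genes still made up 6 of the 10 leading genes of that shallow cluster. Colonocyte-like clusters then held 36.6% (28.1 to 45.7%) and 37.2% (27.5 to 47.8%) of mitochondria-rich barcodes, against 24% (21.5 to 26.6%) and 20.1% (16.7 to 23.8%). Goblet-like and deep crypt secretory-like clusters together held 0 of 123 and 4 of 94, against 30.3% (27.6 to 33.1%) and 26.3% (22.6 to 30.3%). Cycling-like barcodes then numbered 0 and 2 among the mitochondria-rich, where the first clustering had 7 and 6, against 4.43% (3.3 to 5.82%) and 7.39% (5.3 to 9.96%). A cluster's share of shallow barcodes also moves with depth, which differs between the classes, and the part of depth was not tested here.

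Transcript levels were compared next. UMIs were summed per library and class and tested gene by gene with edgeR's quasi-likelihood test with the library as a block, over the 15299 nuclear genes with at least 20 UMIs. At an adjusted p under 0.05, 319 genes were higher (2.09% of those tested) and 498 lower (3.26%) in mitochondria-rich barcodes. The median log2 fold change of all tested genes was -0.14 on the TMM scale, and -0.07 with the 638 genes without a UMI in mitochondria-rich barcodes set to a floor of 3 counts. With plain library totals in place of TMM, 484 were higher (3.16%) and 359 lower (2.35%), so the balance of directions depends on the scaling. It also moved with other choices, to 165 higher and 140 lower with DESeq2, 261 and 221 against barcodes matched on depth alone, and 500 and 531 of 6479 genes with at least 10 UMIs in mitochondria-rich barcodes. Without TMM the median was 0.02, a shift of 0.16, and 678 of the 817 calls were called in the same direction. Of the 319 higher genes 78 were proportional genes. A slope on the mitochondrial UMIs was at hand for 295 of the 319. It was over 0.3 in 199 of them, the 78 proportional genes included, and under 0 in 19. The slopes were fitted over classes that include the mitochondria-rich barcodes, so a gene called higher tends to have a positive slope. These counts are therefore no independent result, and the share of all genes with a slope over 0.3 was not counted. The proportional set ends at a chosen slope threshold.

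Of 10 goblet markers 8 were lower and 0 higher. Muc2, the gene of the gel-forming mucin of the colon, had 2315 and 2243 CPM in mitochondria-rich barcodes of libraries 1 and 2, against 12560.1 and 9629 CPM in low-mitochondrial barcodes (log2 fold change -2.44 ± 0.11 SE, edgeR adjusted p = 8.90e-105). Zg16 had 6879.9 and 4969 CPM in mitochondria-rich barcodes of libraries 1 and 2, against 21953 and 16829.6 CPM in low-mitochondrial barcodes (log2 fold change -1.89 ± 0.10 SE, edgeR adjusted p = 2.64e-83). In both genes the classes did not overlap and the libraries lay close together. Here and below, such statements describe genes already called and are no further test. How often the classes do not overlap among all tested genes was not counted. Reg4 had 378 and 327 CPM in mitochondria-rich barcodes of libraries 1 and 2, against 2252 and 1844 CPM in low-mitochondrial barcodes (log2 fold change -2.70 ± 0.16 SE, edgeR adjusted p = 4.43e-58), and all 8 deep crypt secretory markers were lower, with a median log2 fold change of -2.53. The summed goblet markers were 13279 and 11663 CPM in mitochondria-rich barcodes, against 51268 and 41724 CPM in low-mitochondrial barcodes. T cell-like barcodes with up to 20% mitochondrial UMIs (56 and 9), which should lack these genes, held 7659.6 and 7159 CPM. For the summed deep crypt secretory markers the values were 1757 and 1764, against 9619.7 and 7988, with 1396 and 839 in T cell-like barcodes. That cluster was led by the antibody gene Igha. In library 1 it held 53411 CPM of B or plasma cell markers and 25742 CPM of T cell markers. Its median doublet score, the likeness to simulated pairs of barcodes, was 0.8, against 0.38 and 0.54 in low-mitochondrial barcodes. Whether its goblet RNA came from free RNA in the droplets or from doublets was not tested.

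Colonocyte markers were higher in part. Of 14 tested, 5 were higher and 0 lower. The water channel gene Aqp8 had 1366 and 836 CPM in mitochondria-rich barcodes of libraries 1 and 2, against 442 and 494 CPM in low-mitochondrial barcodes (log2 fold change 1.02 ± 0.16 SE, edgeR adjusted p = 2.06e-08). The carbonic anhydrase Car4 had 3001 and 1498 CPM in mitochondria-rich barcodes of libraries 1 and 2, against 1237 and 1069 CPM in low-mitochondrial barcodes (log2 fold change 0.71 ± 0.13 SE, edgeR adjusted p = 6.94e-06), and the chloride-bicarbonate exchanger Slc26a3 1763 and 1407 CPM in mitochondria-rich barcodes of libraries 1 and 2, against 909.8 and 826 CPM in low-mitochondrial barcodes (log2 fold change 0.69 ± 0.14 SE, edgeR adjusted p = 8.24e-05). In each of the 3 the classes did not overlap, again a description of called genes. The other 2 were Car1 (0.85 ± 0.18) and Clca4a (1.07 ± 0.29), the second with a near-identical neighbour, Clca4b, that may share reads. Krt20, a keratin of differentiated surface cells, was at 2366 and 2269 CPM in mitochondria-rich barcodes of libraries 1 and 2, against 2248 and 2026 CPM in low-mitochondrial barcodes, a difference that did not pass (log2 fold change -0.05 ± 0.13 SE, edgeR adjusted p = 0.932). CPM rest on plain totals and fold changes on the TMM scale, so for this gene the 2 point in opposite directions.

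Genes of the brush border and of ion transport were also higher in part. The colonocyte markers Aqp8 and Slc26a3 are on this list too. Of 18 tested, 9 were higher and 0 lower, and all 18 fold changes were positive, with a median of 0.71. Slc5a8, the sodium-coupled transporter of short-chain fatty acids, had 622 and 605 CPM in mitochondria-rich barcodes of libraries 1 and 2, against 304 and 278 CPM in low-mitochondrial barcodes (log2 fold change 0.91 ± 0.19 SE, edgeR adjusted p = 6.30e-05). The intermicrovillar cadherin Cdhr2 had 468 and 357 CPM in mitochondria-rich barcodes of libraries 1 and 2, against 203 and 181 CPM in low-mitochondrial barcodes (log2 fold change 0.92 ± 0.21 SE, edgeR adjusted p = 6.67e-04), and the sodium-proton exchanger Slc9a2 474 and 279 CPM in mitochondria-rich barcodes of libraries 1 and 2, against 198 and 161 CPM in low-mitochondrial barcodes (log2 fold change 0.86 ± 0.22 SE, edgeR adjusted p = 0.0034). The sum of the list was higher at each step of the mitochondrial share, below the 20% threshold too. Over shares of 0 to 5, 5 to 10, 10 to 20 and over 20% it was 3392, 8037, 9484 and 10381 CPM in library 1 and 2363, 4258, 7920.3 and 8810.4 CPM in library 2. Calls numbered 3 without the library block (beside 1.71% of all genes called higher), 15 at a threshold of 15% (4.28%) and 0 at 30% (1.24%), all higher, and the median at 30% was 0.51.

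**Figure D4:**
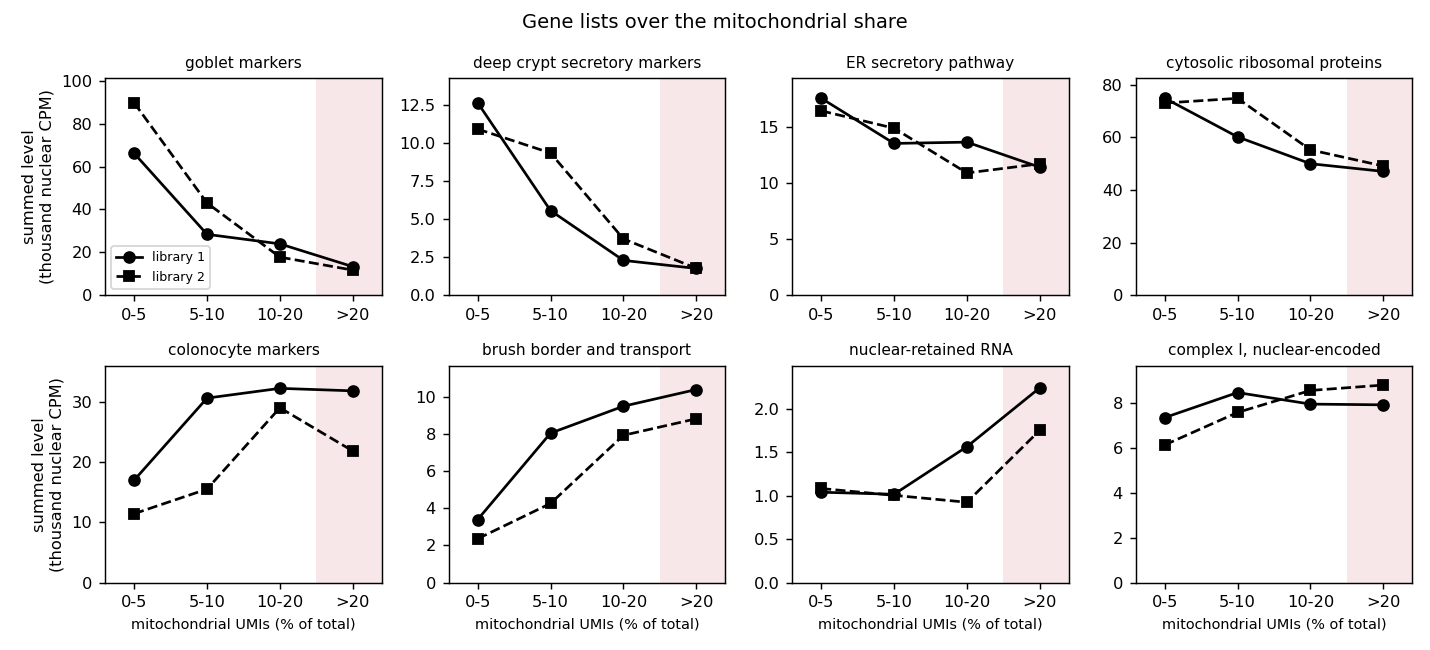
Summed level of 8 gene lists, in units of 1000 nuclear CPM, over 4 classes of mitochondrial share within the same UMI range, in library 1 (solid line, circles) and library 2 (dashed line, squares). The shaded class holds the mitochondria-rich barcodes. Goblet and deep crypt secretory markers are lower and the brush border list higher at each step in both libraries.

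Genes of protein synthesis and secretion were lower in part. Of 34 genes of the endoplasmic reticulum secretory pathway 16 were lower and 0 higher, with a median of -0.64. Ostc, a subunit of the enzyme that attaches sugar chains, had 160.3 and 122 CPM in mitochondria-rich barcodes of libraries 1 and 2, against 404 and 349.9 CPM in low-mitochondrial barcodes (log2 fold change -1.60 ± 0.24 SE, edgeR adjusted p = 6.10e-09). Sec61b, part of the translocation channel, had 526 and 309 CPM in mitochondria-rich barcodes of libraries 1 and 2, against 855 and 740.4 CPM in low-mitochondrial barcodes (log2 fold change -1.15 ± 0.18 SE, edgeR adjusted p = 1.23e-08). Of 78 cytosolic ribosomal protein genes 55 were lower and 0 higher, with a median of -0.66, and their sum was 47082 and 49134 CPM in mitochondria-rich barcodes, against 68263 and 69223 CPM in low-mitochondrial barcodes. Rpl12 had 333 and 557 CPM in mitochondria-rich barcodes of libraries 1 and 2, against 835 and 920.5 CPM in low-mitochondrial barcodes (log2 fold change -1.15 ± 0.17 SE, edgeR adjusted p = 5.34e-09). Ribosomal protein genes have many processed copies, and no source used here gives how the counting dealt with them. Of 22 translation factors 10 were lower and 0 higher, with Eef1a1, the elongation factor that brings transfer RNA to the ribosome, at 1045 and 1925 CPM in mitochondria-rich barcodes of libraries 1 and 2, against 2197 and 3132 CPM in low-mitochondrial barcodes (log2 fold change -1.04 ± 0.13 SE, edgeR adjusted p = 3.95e-13). Without the library block the lower calls numbered 11 ribosomal, 1 translation factor and 9 secretory pathway genes, beside 2.09% of all genes. With DESeq2 they numbered 25, 2 and 5, beside 0.915%, and against barcodes matched on depth alone 23, 2 and 3, beside 3.11%, with 0 higher in each. Without TMM 40 ribosomal, 6 translation factor and 12 secretory pathway genes were lower and 0 higher. Over the share classes of the brush border list, ending in mitochondria-rich barcodes, ribosomal sums were 74963, 60225, 50007 and 47082 CPM in library 1. In library 2 they were 73105, 74892, 55277 and 49134 CPM. Secretory sums were 17593, 13552, 13669 and 11426 CPM in library 1 and 16468, 14914, 10913 and 11728 in library 2. Much of the fall in these sums lay at lower mitochondrial shares. In library 2 the last secretory sum lay above the one before it.

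Immediate early genes, which cells switch on within minutes of a stimulus or of dissociation, were lower where they passed. Of 23 tested, 8 were lower and 0 higher, with a median of -0.94. From the lowest to the highest class of mitochondrial share, the list summed to 4663, 3500, 3222 and 3142 CPM in library 1. In library 2 it summed to 5236, 4278, 3338 and 3022 CPM. The classes are those used for the brush border list, and the last holds the mitochondria-rich barcodes. Most of the fall thus lay at lower mitochondrial shares. The transcription factor Egr1 had 64.1 and 39.2 CPM in mitochondria-rich barcodes of libraries 1 and 2, against 138 and 153 CPM in low-mitochondrial barcodes (log2 fold change -1.72 ± 0.36 SE, edgeR adjusted p = 9.96e-05), on 10 and 9 UMIs in mitochondria-rich barcodes. Ier2 had 96.2 and 100.2 CPM in mitochondria-rich barcodes of libraries 1 and 2, against 227 and 243 CPM in low-mitochondrial barcodes (log2 fold change -1.43 ± 0.28 SE, edgeR adjusted p = 3.02e-05). Nupr1, a stress-response regulator, had 76.9 and 30.5 CPM in mitochondria-rich barcodes of libraries 1 and 2, against 155 and 238 CPM in low-mitochondrial barcodes (log2 fold change -2.14 ± 0.34 SE, edgeR adjusted p = 6.23e-08), on 12 and 7 UMIs. It belongs to the list of the integrated stress response, not to the immediate early genes. In that list of 17 tested, Nupr1 and Herpud1 were lower and 0 higher. The list median was -0.06, beside -0.14 over all tested genes. Genes of interferon response and antigen presentation were divided. Irf7 (1.23 ± 0.25) and the antigen presentation genes Cd74 (0.59 ± 0.15) and H2-Ab1 (0.56 ± 0.16) were higher, and B2m (-0.62 ± 0.11), the light chain of class I molecules, was lower, out of 17.

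Nuclear genes of mitochondrial function had few calls, to be read beside 2.09% of all tested genes called higher and 3.26% lower. Medians of these lists ran from -0.48 (import and folding) to -0.03 (fatty acid oxidation), beside -0.14 over all tested genes. Mitochondrial ribosomal proteins were at -0.45 and genome upkeep and expression at -0.42. In simulated data this comparison recovered 29 of 105 genes changed 2-fold, so few calls do not mean equal levels. Of 37 nuclear-encoded complex I genes, 1 was higher, the proportional gene Ndufv1, and 1 lower, Ndufa4 (-1.09 ± 0.22), today counted with complex IV. The complex I sum was 7906 and 8784 CPM in mitochondria-rich barcodes, against 7709 and 7661 CPM in low-mitochondrial barcodes. Lower calls numbered 1 of 14 in complexes II and III (Uqcrb, -0.52 ± 0.16), 1 of 11 in complex IV (Cox8a, -0.50 ± 0.13), 2 of 16 in the ATP synthase (Atp5g2 and Atp5g3) and 2 of 15 in the citric acid cycle (Suclg2, -1.12 ± 0.23, and Idh3a, -1.05 ± 0.28), with 0 higher. Of 61 mitochondrial ribosomal proteins 1 was higher, Mrps18c, with 212 and 200.3 CPM in mitochondria-rich barcodes of libraries 1 and 2, against 84 and 98 CPM in low-mitochondrial barcodes (log2 fold change 1.0 ± 0.27 SE, edgeR adjusted p = 0.00756). Of 28 genes of mitochondrial import and folding 3 were lower, the translocase subunits Tomm20 (-1.35 ± 0.33), Tomm6 (-1.09 ± 0.32) and Tomm7 (-0.65 ± 0.21). Of 16 carriers and channels 3 were lower, Ucp2 (-0.85 ± 0.20), Vdac2 and Slc25a5, and of 17 genes of mitophagy and dynamics 2 were lower, Bnip3l and Gabarap. These few calls turned on the scaling. Without TMM complexes II and III, complex IV and the ATP synthase had 0 calls, Tomm20 and Ucp2 were the ones left lower among import genes and among carriers, and Bnip3l also did not pass. Fatty acid oxidation (18), upkeep and expression of the mitochondrial genome (19), glycolysis (14) and apoptosis (24) had 0 calls by edgeR and 0 by DESeq2. At an unadjusted p under 0.05 they had 0, 1, 4 and 2, and without TMM 4 glycolysis genes were higher and none of the other 3 lists had a call. The apoptosis gene with most UMIs, Mcl1, had 462 and 353 CPM in mitochondria-rich barcodes of libraries 1 and 2, against 435 and 363 CPM in low-mitochondrial barcodes (log2 fold change -0.15 ± 0.19 SE, edgeR adjusted p = 0.82).

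The largest fold changes rested on few molecules or on the proportional genes. Among called genes with at least 50 UMIs and one direction in both libraries, 9 of the 10 highest were proportional genes, led by Ssxb3 and Matn3, and the other was the olfactory receptor gene Olfr606, on 11 and 11 UMIs. The 10 lowest had no UMI in mitochondria-rich barcodes, so that only a bound against a floor of 3 counts over both libraries can be given. Hba-a2, a haemoglobin gene of red cells, was at least 15.7-fold lower, but 55.9% of its UMIs in low-mitochondrial barcodes came from 1 barcode, and the mast cell protease gene Mcpt2 was at least 8.85-fold lower, with 95.3% from 1 barcode. The transcription factor gene Etv5 was at least 3.88-fold lower and the signalling protein gene Bmp4 at least 3.09-fold lower. For Siae, Scn3b, Lgals12, Cmtm8 and the T cell gene Cd8a the bounds ran from 2.38 to 3.33. Red cell markers summed to 25.6 and 34.8 CPM against 928 and 17.6 CPM, with 2 of 6 at 0 in mitochondria-rich barcodes. The 14 T cell markers summed to 295 and 675 CPM against 789 and 262 CPM, with the classes in opposite order in the 2 libraries.

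A second comparison asked what set mitochondria-rich barcodes apart from barcodes of the same cluster and similar total UMIs. Each was matched with up to 3 barcodes of at most 20% mitochondrial UMIs from its library and cluster, nearest in total UMIs, and only readout genes were tested. CPM in this comparison are per 1000000 UMIs of readout genes. In library 1, 93 and in library 2, 44 mitochondria-rich barcodes found matches, since the cluster of proportional genes held almost no others. The match gave 57 higher genes of 4487 (1.27%) and 30 lower (0.669%), and 28 of the 57 were proportional genes. The balance turned under other filters, with 37 higher and 102 lower without the filter on low counts and 75 and 81 with at least 10 UMIs in mitochondria-rich barcodes, while 45 were higher and 7 lower without the library block. A wider match, added after seeing the data, used the clusters made without the proportional genes. It matched all 123 and 94 to 369 and 242 barcodes and gave 126 higher genes of 5492 (2.29%) and 67 lower (1.22%), with 39 proportional genes among the 126. Of the 87 calls of the first match, 78 were called in the same direction in the wider one. A gap in depth remained, with median totals of 1688 and 4328 UMIs in mitochondria-rich barcodes against 2047 and 4509 in barcodes of the first match. In nuclear UMIs the gap was wider, with medians of 1178 and 3151 against 1881 and 3935. In the wider match these were 1062 and 2096 against 1687 and 3206. The mitochondria-rich barcodes of the first match had median mitochondrial shares of 27.8% and 25.8%, against 30.4% and 32.6% over all of them. Values below are from the first match unless the wider one is named.

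Actin cytoskeleton genes were lower in part. Of 20 genes of this list tested, 7 were lower and 0 higher, with a median log2 fold change of -0.41 beside -0.02 over all tested genes. Their products form actin filaments (Actb, Actg1), bind actin monomers (Pfn1, Tmsb4x), regulate myosin (Myl12a, Myl12b) or link actin to the membrane (Ezr). Actb had 9636 and 10159 CPM in mitochondria-rich barcodes of libraries 1 and 2, against 15293 and 13856 CPM in matched barcodes (log2 fold change -0.61 ± 0.12 SE, edgeR adjusted p = 3.97e-04, and in the wider match -0.49 ± 0.11, edgeR adjusted p = 2.16e-04). Actg1 had 3456 and 4142 CPM in mitochondria-rich barcodes of libraries 1 and 2, against 5300.1 and 5791 CPM in matched barcodes (log2 fold change -0.60 ± 0.13 SE, edgeR adjusted p = 0.00274, and in the wider match -0.72 ± 0.12, edgeR adjusted p = 4.76e-07). These 2 genes are near-identical in their coding sequence and may share reads. Tmsb4x, which holds actin monomers in reserve, had 2876 and 2566 CPM in mitochondria-rich barcodes of libraries 1 and 2, against 4674 and 4260.1 CPM in matched barcodes (log2 fold change -0.77 ± 0.14 SE, edgeR adjusted p = 1.02e-04, and in the wider match -0.79 ± 0.13, edgeR adjusted p = 1.18e-07). Pfn1, which feeds monomers to growing filaments, had 467 and 437 CPM in mitochondria-rich barcodes of libraries 1 and 2, against 919 and 835 CPM in matched barcodes (log2 fold change -1.01 ± 0.22 SE, edgeR adjusted p = 0.00265, and in the wider match -1.14 ± 0.20, edgeR adjusted p = 1.63e-06). In all 4 genes each mitochondria-rich sum lay below each matched sum, again a description of called genes. Myl12b had 1034 and 1082 CPM in mitochondria-rich barcodes of libraries 1 and 2, against 1529.5 and 1627 CPM in matched barcodes (log2 fold change -0.63 ± 0.17 SE, edgeR adjusted p = 0.0308, and in the wider match -0.68 ± 0.16, edgeR adjusted p = 0.00121). Its near-identical neighbour Myl12a, which may share reads with it, had 177 and 449 CPM in mitochondria-rich barcodes of libraries 1 and 2, against 667 and 560.4 CPM in matched barcodes (log2 fold change -1.02 ± 0.27 SE, edgeR adjusted p = 0.0208, and in the wider match -1.06 ± 0.23, edgeR adjusted p = 2.99e-04), on 14 and 39 UMIs in mitochondria-rich barcodes. Ezr had 1577 and 1588 CPM in mitochondria-rich barcodes of libraries 1 and 2, against 2464 and 2058 CPM in matched barcodes (log2 fold change -0.56 ± 0.16 SE, edgeR adjusted p = 0.0367, and in the wider match -0.39 ± 0.14, edgeR adjusted p = 0.122), so that it did not pass in the wider match, where 6 of 20 were lower and 0 higher. The 4 branching complex genes tested, Arpc5 (-0.46 ± 0.22), Arpc3 (-0.25 ± 0.21), Arpc2 (-0.07 ± 0.18) and Arpc1b (0.03 ± 0.18), did not pass.

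**Figure D5:**
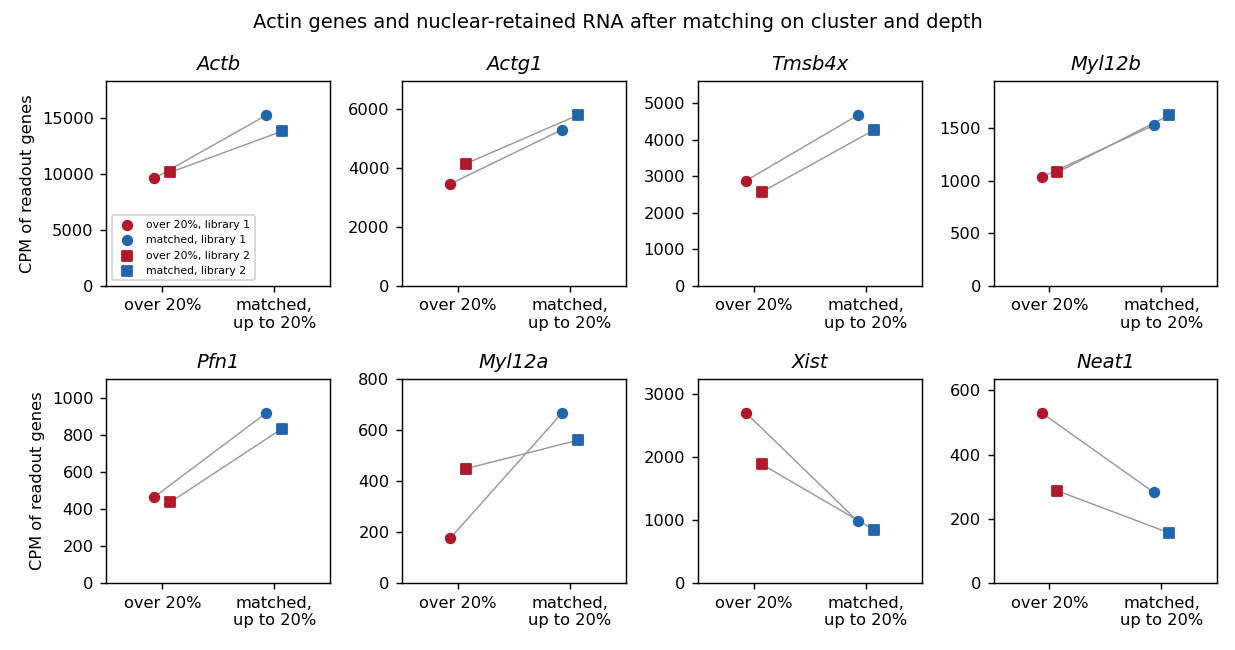
CPM of readout genes for 6 actin cytoskeleton genes and the RNAs Xist and Neat1, in mitochondria-rich barcodes (red, left) and barcodes matched on cluster and total UMIs (blue, right), with library 1 as circles, library 2 as squares and lines joining the classes of a library. In both libraries these 6 actin genes are lower and Xist and Neat1 higher in mitochondria-rich barcodes, and Neat1 did not pass the test.

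The number of actin calls depended on the settings. It was 5 without TMM (beside 0.446% of all genes lower), where Myl12b was among those that did not pass, 4 without the barcodes of highest doublet score (0.293%), 3 with DESeq2 (0.156%), 2 without the library block (0.156%), 1 at a threshold of 15% (0.104%), 0 at 30% (0%) and 0 with 1 matched barcode each (0.0357%). All were lower. Meanwhile the median of the list lay between -0.67 and -0.23 under all alternatives run. In the first comparison, without matching, 6 of 25 were lower and 0 higher (5 lower and 2 higher without TMM), and the sum of the list was 29578 and 28735 CPM in mitochondria-rich barcodes, against 28218 and 28549 CPM in low-mitochondrial barcodes. Tpm4, a tropomyosin that stabilises filaments, and Tmsb10, a relative of Tmsb4x, were lower there, at 51.3 and 52.3 CPM against 209.6 and 178 CPM for Tpm4. Tmsb10 did not pass without TMM, and Actb did not pass (-0.05 ± 0.11, edgeR adjusted p = 0.918).

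Long RNAs that stay in the nucleus were higher in part. Xist, which coats the silenced X chromosome, had 2699 and 1887 CPM in mitochondria-rich barcodes of libraries 1 and 2, against 982 and 853 CPM in matched barcodes (log2 fold change 1.26 ± 0.16 SE, edgeR adjusted p = 3.49e-08, and in the wider match 1.31 ± 0.14, edgeR adjusted p = 1.05e-16), and the classes did not overlap. It was the one call among 7 RNAs of this list, with a median of 0.78. Over the alternatives that median ran from -0.22, at a threshold of 30%, to 0.91, and it was also below 0 without the filter on low counts, while Xist passed under every tested alternative, at 0.99 to 1.39. Neat1, the scaffold of nuclear paraspeckles, had 529.7 and 288 CPM in mitochondria-rich barcodes of libraries 1 and 2, against 283 and 157 CPM in matched barcodes, which did not pass in the first match and passed in the wider one (log2 fold change 0.84 ± 0.28 SE, edgeR adjusted p = 0.13, and in the wider match 1.24 ± 0.26, edgeR adjusted p = 1.30e-04). In the comparison without matching Xist (1.0 ± 0.15) and Neat1 (1.39 ± 0.26) were higher and the snoRNA host Gas5 lower (-0.94 ± 0.29), of 9 tested. Gas5 did not pass without TMM. Malat1, often the most abundant such RNA, had 4 and 2 UMIs in all mitochondria-rich barcodes. The sum of the list was 1039, 1015, 1562 and 2238 CPM in library 1 and 1081, 1003, 924 and 1751 CPM in library 2, over mitochondrial shares of 0 to 5, 5 to 10, 10 to 20 and over 20%.

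Genes of defence against oxidation were lower in part, 3 of 20 with 0 higher. Txn1, the cytosolic thioredoxin, had 6912 and 5741 CPM in mitochondria-rich barcodes of libraries 1 and 2, against 9865 and 7987 CPM in matched barcodes (log2 fold change -0.55 ± 0.12 SE, edgeR adjusted p = 0.00358, and in the wider match -0.53 ± 0.11, edgeR adjusted p = 1.95e-04). Prdx6, a peroxide-reducing enzyme, had 4603 and 4418 CPM in mitochondria-rich barcodes of libraries 1 and 2, against 7268 and 5715 CPM in matched barcodes (log2 fold change -0.57 ± 0.13 SE, edgeR adjusted p = 0.00415, and in the wider match -0.38 ± 0.12, edgeR adjusted p = 0.0403). Gsr, which regenerates glutathione, had 101 and 46 CPM in mitochondria-rich barcodes of libraries 1 and 2, against 322 and 307 CPM in matched barcodes (log2 fold change -2.16 ± 0.40 SE, edgeR adjusted p = 1.91e-04, and in the wider match -1.44 ± 0.32, edgeR adjusted p = 4.79e-04), on 8 and 4 UMIs in mitochondria-rich barcodes. At a threshold of 30% its value turned to 0.72. Cat and Prdx1 were called in the wider match in addition. Other lower genes were Sptssb of sphingolipid synthesis (-1.37 ± 0.30, 0.0051 at a threshold of 30%), the galectin-like Lgalsl (-1.77 ± 0.47), the RNA-binding protein Hnrnpf (-1.16 ± 0.29), the thioredoxin relative Txndc17 (-1.0 ± 0.28), Gabarap of autophagy (-1.10 ± 0.24), the mitochondrial ADP/ATP carrier Slc25a5 (-0.51 ± 0.13) and B2m (-0.60 ± 0.12). Calm2, a calcium sensor (-0.86 ± 0.19), and the actin-binding Tagln2 (-0.67 ± 0.18) were lower too and are named after their values were seen. Txndc17 did not pass without TMM.

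Nuclear genes of the respiratory chain had few calls after matching. Uqcrb of complex III was lower (-0.67 ± 0.16), the proportional gene Ndufv1 was the one higher gene of 37 in complex I, and complex IV, the ATP synthase and the citric acid cycle had 0 calls by edgeR and 0 by DESeq2, with 3 of 11, 5 of 16 and 2 of 15 at an unadjusted p under 0.05. In the wider match Uqcrb, Uqcrq (-0.59 ± 0.17), the electron carrier Cycs (-0.59 ± 0.18), Cox8a (-0.47 ± 0.12), Cox5a (-0.42 ± 0.13), Atp5g3 (-0.56 ± 0.15), Idh3a (-0.92 ± 0.29) and Suclg2 (-0.87 ± 0.23) were lower.

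Lists that stood apart without matching had few calls with it. Cytosolic ribosomal proteins had 0 calls of 75 by edgeR and 0 by DESeq2, with 2 at an unadjusted p under 0.05 and a median of 0.00. Their sum was 76266 and 75592 CPM in mitochondria-rich barcodes, against 71296 and 76028 CPM in matched barcodes. In the wider match 4 of 76 were lower, with a median of -0.21. The secretory pathway had 1 higher gene of 34, the channel subunit Sec61a1 (0.89 ± 0.20), to which the wider match added the lower Sec61b (-0.65 ± 0.18). The brush border list had 1 higher of 16, the water channel Aqp4 (0.70 ± 0.16), which stood at -0.0017 in the wider match and at -0.58 with a threshold of 30%. Immediate early genes had 0 calls of 20 by edgeR and 0 by DESeq2, with 1 at an unadjusted p under 0.05, and in the wider match Fos was lower (-0.90 ± 0.20). Whether these lists differ more without matching than with it was not tested, and both comparisons use the same mitochondria-rich barcodes.

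The 10 highest fold changes were all of proportional genes, Flcn and Kctd15 among them, with values of 2.07 ± 0.18 and 2.28 ± 0.43. Outside the proportional set, a choice made after the values were seen, the largest were the Notch ligand gene Dll4 (1.77 ± 0.40), Gon4l (1.76 ± 0.29), Slfn4, the cytokine signalling inhibitor Socs2 (1.65 ± 0.41), the calcium channel gene Orai2 (1.63 ± 0.40) and the complement inhibitor Cd59a (1.56 ± 0.33). For Slfn4 1 barcode held 70.8% of the UMIs in mitochondria-rich barcodes, and its value of 1.73 ± 0.31 turned to -1.90 at a threshold of 30%. Dll4 had 164 and 288 CPM in mitochondria-rich barcodes of libraries 1 and 2, against 33.8 and 96.4 CPM in matched barcodes, on 13 and 25 UMIs. Genes outside the proportional set can also climb with mitochondrial UMIs, since a slope threshold drew its edge.

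Mitochondria-rich barcodes varied among themselves. The 35 and 35 with over 40% mitochondrial UMIs had median totals of 1329 and 2379 UMIs, against 1686 and 3891 for the 88 and 59 with 20 to 40%. Summed colonocyte markers were at 27947 and 20453 CPM over 40%, against 32625 and 22176 CPM at 20 to 40%. Goblet markers were at 19154 and 12193 CPM against 12026 and 11531 CPM, deep crypt secretory markers at 2335 and 1573 CPM against 1634 and 1811 CPM, a list in opposite order in the 2 libraries. The brush border list was at 7552 and 8522 CPM against 10984 and 8882 CPM. T cell markers were at 292 and 197 CPM against 296 and 794 CPM. Summed immediate early genes were at 2079.6 and 2076 CPM against 3368 and 3258 CPM, lower over 40% in both libraries, with no test. Clusters made without the proportional genes divided them more sharply. The 45 and 35 in colonocyte-like clusters had 51889.5 and 40862 CPM of colonocyte markers and 21035 and 18975 CPM of cytosolic ribosomal proteins. The 61 and 35 in the unnamed shallow cluster had 19021 and 13837 CPM of colonocyte markers and 61063 and 58919.5 CPM of ribosomal proteins. The 16 and 16 in the cluster led by Reg3b had 72072 and 70143 CPM of ribosomal proteins. Goblet markers summed to 22249 and 13655 CPM in those of the shallow cluster, beside 7659.6 and 7159 CPM in T cell-like barcodes. They stood at 8120 and 5103 CPM in the colonocyte-like ones and at 7777 and 4396 CPM in those of the Reg3b-led cluster. Deep crypt secretory markers summed to 2764 and 2376 CPM in the shallow cluster, 1275 and 974 CPM in the colonocyte-like ones and 955 and 538 CPM in the Reg3b-led one. Markers made these clusters, so their levels are descriptions.

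Gene diversity at equal depth did not separate the classes. Thinned to 500 nuclear UMIs, a mitochondria-rich barcode held a median of 398 genes in library 1 (quartiles 378 to 417, n = 117) and 396 in library 2 (379.8 to 417, n = 92). A low-mitochondrial barcode held 393 (364 to 411, n = 1106) and 405 (383 to 419, n = 528). The classes differed in opposite directions in the 2 libraries and by less than the spread between barcodes. Thinning left out 6 and 2 mitochondria-rich barcodes with fewer nuclear UMIs and 0 low-mitochondrial ones. Unthinned, the medians were 736 and 1281 nuclear genes against 1604 and 2188. Doublet scores placed 0 and 2 mitochondria-rich barcodes among the 5% with the highest scores of each library.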

How the data were processed

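The authors' deposited tables hold UMI counts per gene and barcode for 2 libraries, with 25504 gene symbols, in units of counts. Builds GRCm38 and GRCh38 are named in the submitters' processing notes, while no source used here gives the aligner, annotation, use of strand or barcode filter. Overlapping genes, antisense genes and near-identical copies are therefore uncertain. Library totals were 8602490 and 3951918 UMIs, and the lowest total per barcode was 1001 and 1002. The added human cells were not analysed here.

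UMIs were summed per library and barcode class, which gives 4 sums, and tested with edgeR 4.0.16 (quasi-likelihood, TMM, at least 20 UMIs, Benjamini-Hochberg adjustment, adjusted p under 0.05) in R 4.3.3, with the library as a block because both classes come from each library. With 1 residual degree of freedom the test rests on a spread pooled over genes (common dispersion 0.0144, and 0.0129 in the matched comparison). The prior degrees of freedom were infinite in the first comparison, so a gene's own spread between libraries had no weight in its p-value. In the matched comparison they were 64.7. DESeq2 1.42.0 was an alternative. Clustering used 1500 variable genes, 30 components and the Leiden algorithm at resolution 1 (Python 3.11.15, scikit-learn 1.9.0, igraph 0.11.9, leidenalg 0.10.2). Simulated doublets scored the barcodes, all were kept, and leaving out the 5% with the highest scores was an alternative.

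Genes were named by rule: called, at least 50 UMIs and one direction in both libraries, the 10 highest and 10 lowest fold changes, plus up to 4 called members of each list, or the 2 with most UMIs where none was called. A few genes that the rule named are not reported here. The barcodes and gene lists were chosen with earlier results of these data known. Tested on simulated data, the first comparison recovered 29 of 105 genes changed 2-fold and 79 of 95 changed 4-fold, with 1 false call, and the matched one 83 of 104 and 96 of 96, with 4 false calls. The simulated counts followed the fitted common dispersion, with no library effect and no differences between barcodes. Changed genes were drawn from those with more UMIs than the filter asked. The false calls are therefore no measure of those in the real data.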

Additional observations from a re-analysis of the deposited data

How the results depend on the processing

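The first comparison gave 817 calls and the matched one 87. Calls in the first numbered 305 with DESeq2, 482 against barcodes matched on depth alone (an alternative chosen after seeing the data), 1288 against barcodes of up to 5% mitochondrial UMIs, and 1432 and 464 at thresholds of 15% and 30%. Without the replicate block there were 580. Among the calls 812 and 816 kept their direction when 1 library was left out, a value with no test. In the matched comparison calls numbered 22 with DESeq2, 52 without the replicate block (45 higher and 7 lower), 42 without the highest doublet scores, 139 without the filter on low counts (37 and 102), 156 with at least 10 UMIs in mitochondria-rich barcodes (75 and 81), 210 with clusters at resolution 0.5, 193 with clusters made without the proportional genes, 15 with 1 matched barcode and 14 at a threshold of 30%, and 87 kept their direction when either library was left out. Mitochondria-rich barcodes in colonocyte-like clusters made up 36.4%, 23.7% at a threshold of 30% and 29.8 to 41.5% in single libraries. Those in goblet-like or deep crypt secretory-like clusters made up 0.461%, 2.89% and 0% at thresholds of 15% and 30%, and 0 to 1.06% in single libraries. Genes per barcode at equal depth were 97.9 to 101.3% of those in low-mitochondrial barcodes in single libraries. In total 5 matched values turned sign: Gsr (0.72), Sptssb (0.0051), Slfn4 (-1.90) and Aqp4 (-0.58) at a threshold of 30%, and Aqp4 (-0.0017) with clusters made without the proportional genes. The causes were not tested. The 1 residual degree of freedom and the 155961 and 229615 nuclear UMIs of the mitochondria-rich sums limit the precision, and a gene at 0 in them may be present below 3 counts.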
